A study of Mus musculus with 4 samples.

Results

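Brain myeloid cells that carried Ms4a7 together with Clec12a or Gpnmb were examined in 4 mice on cuprizone, a copper chelator that strips myelin from the brain. A cell was counted as such a phagocyte when it had 1 or more unique molecular identifiers (UMIs, tags that count each captured RNA molecule once) of Ms4a7 and 1 or more of Clec12a or Gpnmb, and when its UMIs of F13a1, Cbr2, Lyve1, Cd163 and Pf4, 5 genes of macrophages at the borders of the brain, summed to under 3. After cells with fewer than 200 or more than 6000 genes or with over 10% of UMIs from mitochondrial genes were set aside, 40869 cells passed, and 1674 of them met this rule (4.10%). The members were thus chosen by their own UMIs of these 8 genes, so the levels of the 8 genes describe the choice and were not tested.

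The 4 mice were C57BL/6 animals, 2 of them PRMT1FL, with loxP-flanked Prmt1 alleles, and 2 PRMT1Cx3cr1-KO, with a Cre that is made under Cx3cr1 and becomes active on tamoxifen to delete these alleles; both genotypes were given tamoxifen. The labels put the mice at 5 to 6 weeks of age on the diet, which held 0.2% cuprizone and was given to all 4 for 5 weeks; the study's methods place that age at the tamoxifen injections, which came before the diet. Hence no mouse without demyelination enters any comparison here. Cells positive for CD45 and CD11b were sorted from the brain and each mouse gave 1 droplet library, with 91306165 and 76943248 UMIs in PRMT1FL mice and 85874289 and 99559644 UMIs in PRMT1Cx3cr1-KO mice. Cx3cr1 drives Cre in microglia and in other Cx3cr1-positive macrophages, and a cell with deleted alleles cannot be told from one with intact alleles in these counts. Values below are given for PRMT1FL mouse 1, PRMT1FL mouse 2, PRMT1Cx3cr1-KO mouse 1 and PRMT1Cx3cr1-KO mouse 2, in that order, unless said otherwise.

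Microglia are the resident macrophages of the brain, and after demyelination they take up and digest myelin debris, a task that needs lysosomes and the export of cholesterol. Macrophages of other origins, among them those at the brain's borders and those derived from blood monocytes, can join them. Ms4a7 (ENSMUSG00000024672, GRCm38 chromosome 19, 11321039 to 11336146, minus strand) belongs to the MS4A family of membrane proteins and is known as a marker of macrophages other than resting microglia. Clec12a (ENSMUSG00000053063, chromosome 6, 129342691 to 129365303, plus strand) encodes an inhibitory C-type lectin receptor of myeloid cells. Gpnmb (ENSMUSG00000029816, chromosome 6, 49036546 to 49070929, plus strand) encodes a transmembrane glycoprotein of lipid-laden macrophages. All 3 are protein-coding genes, and the counts are per gene, not per exon or intron.

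The phagocytes numbered 305, 226, 397 and 746 cells, or 2.67, 2.77, 3.83 and 6.84% of the passing cells of each mouse. The 95% exact (Clopper-Pearson) binomial intervals were 2.38 to 2.98%, 2.42 to 3.15%, 3.47 to 4.22% and 6.38 to 7.33%, and they cover counting error only. Both PRMT1Cx3cr1-KO mice lay above both PRMT1FL mice, and the gap between the 2 PRMT1Cx3cr1-KO mice was wider than that between PRMT1Cx3cr1-KO mouse 1 and the PRMT1FL mice. The mean share was 2.72% ± 0.0687 (SD, n = 2) in PRMT1FL mice and 5.34% ± 2.13 (SD, n = 2) in PRMT1Cx3cr1-KO mice, a ratio of 1.96 (two-sided exact permutation test, p = 0.333, the smallest p that 2 against 2 mice allow). Leaving out PRMT1Cx3cr1-KO mouse 2 gave a ratio of 1.41, and leaving out mouse 1 of that genotype gave 2.52.

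Which second marker a phagocyte carried differed between mice. Gpnmb without Clec12a was found in 270, 185, 299 and 329 phagocytes, Clec12a without Gpnmb in 25, 30, 57 and 283, and both in 10, 11, 41 and 134. Cells with any Clec12a thus made up 11.5, 18.1, 24.7 and 55.9% of the phagocytes. As a share of all passing cells, phagocytes with Clec12a were at 0.306, 0.502, 0.945 and 3.82% (ratio of the genotype means 5.90), and those with Gpnmb alone at 2.36, 2.26, 2.88 and 3.02% (ratio 1.28). For each of these kinds the PRMT1Cx3cr1-KO mice lay above the PRMT1FL mice (exact permutation p = 0.333 for each), but the excess of PRMT1Cx3cr1-KO mouse 2 was mostly in cells with Clec12a.

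**Figure D1:**
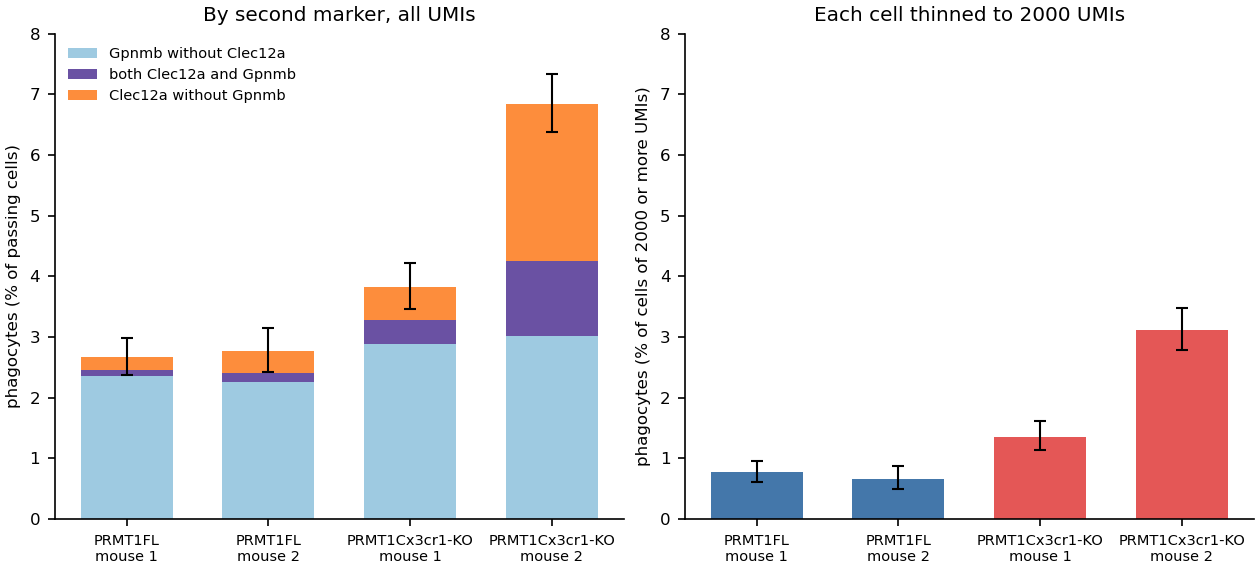
Left, phagocytes as a percent of the passing cells of each mouse, stacked by the second marker, with 95% exact binomial intervals on the total. Right, the same share after each cell of 2000 or more UMIs was thinned to 2000 UMIs. Both PRMT1Cx3cr1-KO mice lie above both PRMT1FL mice in each panel.

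Phagocytes held more UMIs than the cells without Ms4a7 and Clec12a, and a deeper cell passes a rule of 1 UMI more easily. Their median UMI count was 10028, 12666.5, 9857 and 7691.5, against 5971.5, 6719, 6030 and 6692 in the 36241 passing cells without Ms4a7 and Clec12a, called comparison cells below. With every cell thinned to 2000 UMIs, which left out 3783 cells of lower depth, the share was 0.773, 0.665, 1.36 and 3.12% (ratio 3.11). Simulated doublets resembled 12.8, 11.1, 14.1 and 13.1% of the phagocytes and 8.94, 6.40, 7.82 and 7.22% of the comparison cells. Without these cells the share was 2.56, 2.63, 3.59 and 6.52%. Free RNA gives UMIs in cells that do not express a gene: Ms4a7 was seen in 1 of 75 cells of a neutrophil gate (1.33%) and in 6 of 245 cells of an astrocyte gate (2.45%), at median depths of 4612 and 3234 UMIs, against 10.6% of all passing cells at a median of 6527. Most cells of these gates came from PRMT1FL mice, with 25, 48, 0 and 2 cells in the neutrophil gate and 123, 88, 22 and 12 in the astrocyte gate. In PRMT1Cx3cr1-KO mouse 2 Ms4a7 was seen in 2 of 12 astrocyte gate cells (16.7%, exact 95% interval 2.09 to 48.4%) and in 1 of 2 neutrophil gate cells, against 17.4% of all its passing cells, so its share was not set above background by these few cells. Clec12a was seen in 44.0% of the neutrophil gate, a cell type that expresses it, and in 1.22% of the astrocyte gate. Gpnmb was seen in 5 of 75 cells of the neutrophil gate (6.67%) and 8 of 245 of the astrocyte gate (3.27%), against 16.8% of all passing cells. Of the phagocytes, 1 lay in the neutrophil gate and 3 in the astrocyte gate. Between 31 and 46 cell barcodes were shared by any pair of libraries.

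The limit on border macrophage genes cut through a continuous range. Among cells that met the rest of the rule, 1069, 371 and 234 had 0, 1 and 2 UMIs of the 5 genes and were counted as phagocytes, while 141 and 89 had 3 and 4 UMIs and 359 had 5 or more. Pf4, a platelet and macrophage chemokine, gave 91.5, 94.9, 95.5 and 90.4% of these UMIs inside the phagocytes, whereas Lyve1 and Cd163 had at most 1 and 3 UMIs per mouse there. Requiring 0 UMIs of the 5 genes left shares of 2.07, 1.90, 2.60 and 3.74%.

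The first comparison asked how the phagocytes differed from the other cells of the same mouse. UMIs were summed per mouse over the phagocytes and over the comparison cells and tested with the mouse as a block. Adjusted p-values in all that follows come from the quasi-likelihood test of edgeR. They were adjusted by the Benjamini-Hochberg method over all genes tested, and a gene is called at an adjusted p under 0.05. Fold changes are log2. Their standard error (SE) was derived from the test, as the absolute fold change divided by the square root of its F value. Levels are in CPM, the UMIs of a gene per 1000000 UMIs of the same cells. The phagocyte sums held 3612162, 3370286, 4934332 and 7622925 UMIs. Of 12976 genes, 985 were higher (7.59%) and 882 lower (6.8%) in the phagocytes, and the median fold change over all of them was -0.01. Without PRMT1Cx3cr1-KO mouse 1 the number called was 1203 in place of 1867. Ms4a7, Clec12a and Gpnmb stood at 167 to 409, 14.4 to 109 and 438 to 959 CPM in the phagocytes, which is the choice itself.

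Most homeostatic genes of microglia were lower in the phagocytes. Of 16 homeostatic microglia genes tested, 14 fell and none rose (median -0.38). P2ry12, the purinergic receptor by which microglia sense injury, was at 176, 218, 314 and 388 CPM in phagocytes and at 417, 482, 564 and 634 CPM in comparison cells. It was lower in the phagocytes of every mouse, with a fold change of -0.87 (SE 0.07, adjusted p = 6.19e-07). Siglech, a lectin of resting microglia, stood at 197, 246, 169 and 135 CPM against 426, 449, 305 and 303 CPM, and the transcription factor gene Sall1, which maintains microglial identity, fell by 0.54 on the log2 scale. Slc2a5, a fructose transporter gene, fell from 53.3, 60.4, 50.5 and 55.4 CPM to 27.4, 22.0, 23.9 and 27.9 CPM. Cst3, the most abundant gene of the list, fell by 0.30. Fcrls, a gene that marks microglia among brain macrophages, passed no threshold, with a fold change of 0.04 (SE 0.03, adjusted p = 0.543). Its levels of 1960, 1983, 1875 and 2086 CPM were 0.982, 0.975, 0.953 and 0.926 times those of the comparison cells, so its CPM lay lower in every mouse, while the fitted value also scales the sums by the trimmed mean method (TMM); with Clec12a required it fell by 0.23 (adjusted p = 0.0148). Of 18 transcription factor genes of the microglial and macrophage lineages, 7 fell, Sall1 among them, and none rose.

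Genes of myelin-clearing and disease-associated microglia were higher, with exceptions. Of 17 such genes tested, 11 rose and 3 fell (median 0.34). With Gpnmb alone 13 rose and 2 fell, beside 8.03 and 6.41% of all genes. With Clec12a required 5 rose and 5 fell (median -0.02), beside 4.55 and 4.48% of all genes. The difference between these kinds was not tested. Apoe, the main lipid carrier of the brain, was at 53292, 47840, 58857 and 60102 CPM in phagocytes and at 35508, 31276, 33862 and 28689 CPM in comparison cells, a fold change of 0.86 (SE 0.05, adjusted p = 5.70e-08). The 2 sets of values did not overlap. Spp1, which encodes the secreted matrix protein osteopontin, was at 4127, 3511, 3676 and 3959 CPM against 1873, 1690, 1358 and 1395 CPM (1.38, SE 0.06). Lgals3, the gene of the carbohydrate-binding galectin 3, rose by 1.27 (SE 0.05) and the growth factor gene Igf1 by 1.02 (SE 0.08), while Tyrobp, the adaptor of Trem2, rose by only 0.14 (SE 0.03) and stood at -0.14, not called, with Clec12a required. The chemokine gene Ccl6 fell, from 1037, 1160, 741 and 815 CPM to 552, 590, 365 and 372 CPM. Cst7, a protease inhibitor gene of the same list, showed a fold change of 0.00 (SE 0.09, adjusted p = 0.996), but of -0.75 (adjusted p = 7.95e-23) with Clec12a required.

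Lysosomal and lipid genes moved with them. Of 27 lysosomal genes 21 rose and 1 fell (median 0.26), and of 20 lipid handling genes 15 rose and none fell (median 0.43). With Clec12a required 10 lipid genes rose and 2 fell (median 0.32), beside 4.55 and 4.48% of all genes. With Gpnmb alone 15 rose and none fell (median 0.51), beside 8.03 and 6.41% of all genes. Changes in the most abundant lysosomal genes were small: Ctsd, the gene of cathepsin D, stood at 25555, 25113, 21252 and 20256 CPM against 20558, 19629, 19245 and 21131 CPM (0.29, SE 0.05, adjusted p = 0.00113), and Ctsb, of cathepsin B, rose by 0.37. In PRMT1Cx3cr1-KO mouse 2 Ctsd was lower in the phagocytes than in the comparison cells. The less abundant Atp6v0d2, a subunit gene of the lysosomal proton pump, rose by 1.76 (SE 0.19) and Acp5, an acid phosphatase gene, by 1.40 (SE 0.26), whereas the cathepsin L gene Ctsl fell by 0.13. The apolipoprotein genes Apoc4 and Apoc2 rose by 1.67 (SE 0.06) and 1.17 (SE 0.05), and the scavenger receptor gene Msr1 by 1.20 (SE 0.13). Apoc4 was at 164, 122, 182 and 144 CPM in phagocytes and at 50.1, 44.6, 54.3 and 54.8 CPM in comparison cells, so that the lowest phagocyte value was above the highest comparison value. The ferritin gene Fth1, which stores iron, rose by 0.51 (SE 0.02).

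**Figure D2:**
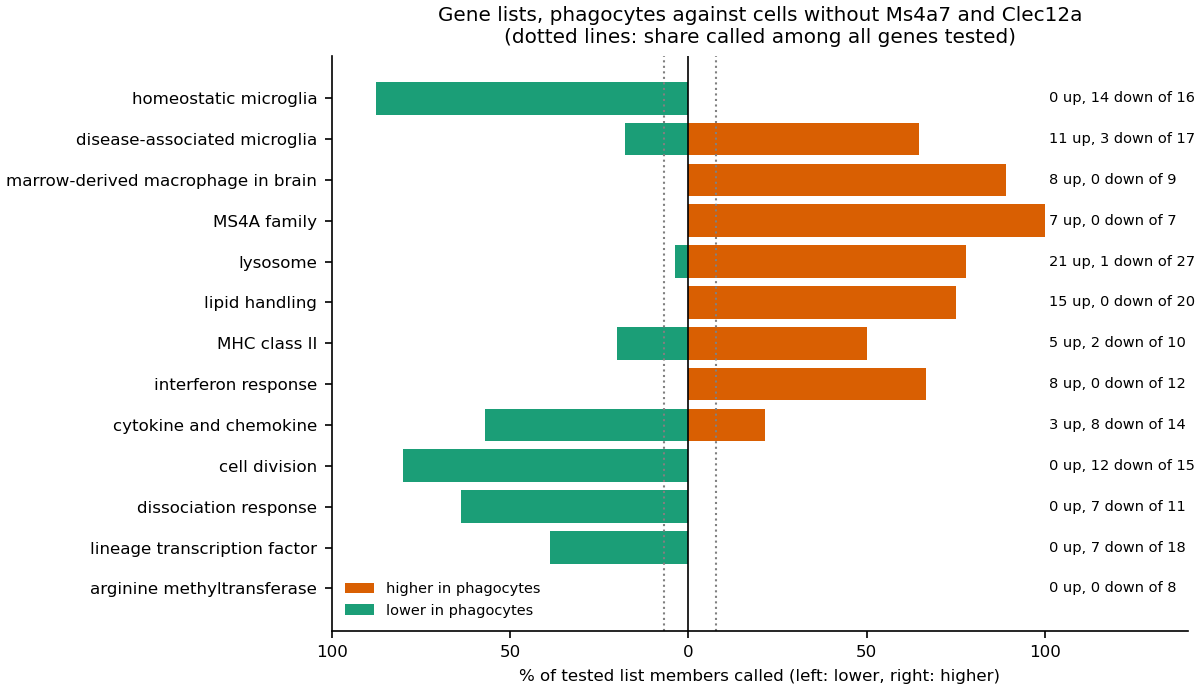
Percent of the tested members of 13 gene lists called higher (to the right) or lower (to the left) in phagocytes than in comparison cells of the same mouse, with the numbers at the right edge and dotted lines at the shares among all 12976 genes (7.59% higher and 6.8% lower). The MS4A, marrow-derived macrophage, lysosome and lipid lists lie to the right and the homeostatic and cell division lists to the left.

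Genes linked with macrophages that enter the brain from the marrow were also higher than in the comparison cells. Of 9 such genes tested 8 rose and none fell (median 1.32), among them Lyz2, the lysozyme gene, at 2177, 2313, 3073 and 5453 CPM against 1357, 1356, 1219 and 1271 CPM (1.32, SE 0.15, adjusted p = 3.42e-05). Lyz2 was highest in PRMT1Cx3cr1-KO mouse 2. With Clec12a required 8 of 9 genes of the list rose (median 2.15), beside 4.55% of all genes. With Gpnmb alone 5 of 8 rose (median 0.44), beside 8.03% of all genes, and the difference between the kinds was not tested. Ccr2, the receptor that brings monocytes out of the marrow, was at 5.54, 23.4, 15.6 and 16.9 CPM, from 20, 79, 77 and 129 UMIs, against 1.73, 2.05, 2.08 and 2.65 CPM (2.88, SE 0.21). The integrin gene Itga4 rose by 2.05 (SE 0.21). Of the 7 monocyte genes tested these 2 rose and 3 fell (Plac8, S100a6 and S100a4), with a median of -0.96. Ly6c2, which defines classical blood monocytes, had no UMI in the phagocytes of any mouse, and over the whole monocyte list of 10 genes the summed level was 250, 186, 256 and 247 CPM in phagocytes and 216, 181, 306 and 319 CPM in comparison cells, most of it Fn1. Neither monocyte genes as a group nor dendritic cell genes (72.5, 84.0, 74.4 and 79.8 CPM summed over 9 genes, with Xcr1 at 0) were higher than in the comparison cells of every mouse. Summed neutrophil, lymphocyte and astrocyte markers were lower in the phagocytes than in the comparison cells of each mouse (neutrophil 123, 129, 121 and 117 CPM against 255, 574, 132 and 124 CPM, with Retnlg, Ly6g and Camp at 0), oligodendrocyte markers were at 67.0, 59.6, 78.0 and 69.5 CPM against 143, 119, 88.2 and 65.1 CPM with Mog at 0, and endothelial markers, mostly Flt1, were higher at 110, 102, 74.4 and 70.7 CPM against 69.2, 60.2, 59.0 and 65.9 CPM. Of the 5 endothelial genes only Flt1 was called higher, while Ly6c1 and Cldn5 were called lower (median -0.46). The part of RNA from other cell types in the results was not tested. All 7 MS4A genes tested outside the rule rose, with Ms4a6c at 134, 174, 188 and 306 CPM against 69.1, 68.0, 89.2 and 112 CPM (1.32, SE 0.07). Ms4a14 had the largest fitted rise of all genes named by the rule (5.66, SE 0.39), from 7, 10, 34 and 90 UMIs in phagocytes. Neither list was higher as a group than in Ms4a7 cells with 3 or more border macrophage UMIs, described further on. There, Apoe of 9 marrow-derived macrophage genes was called higher, Mrc1 lower and 7 were not called (median -0.21). Of 6 MS4A genes Ms4a6b was lower and none higher (median -0.40), beside 0.435% of all genes higher and 0.871% lower.

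Of the 12 genes with the largest rises, several were known myeloid receptors or interferon-inducible genes at low levels. Klra2, a killer-cell lectin-like receptor gene, had 7, 24, 13 and 52 UMIs in phagocytes, or 1.94, 7.12, 2.64 and 6.82 CPM, against 0.147, 0.135, 0.0558 and 0.177 CPM. Ifi203 and Mndal, 2 neighbouring genes of an interferon-inducible family whose members are alike in sequence and may share reads, rose by 4.73 (SE 0.47) and 4.48 (SE 0.30). Cd5l, a secreted protein of lipid-regulating macrophages, was at 51.2, 26.4, 28.2 and 22.7 CPM against 3.11, 3.17, 3.45 and 6.28 CPM (3.06, SE 0.25). Against Ms4a7 cells with 3 or more border macrophage UMIs, described further on, the CPM ratio of Ms4a14 was 0.201, 0.263, 0.716 and 1.46 and that of Klra2 0.127, 0.337, 0.548 and 1.3, and Ifi203 and Mndal were likewise below 1 in 3 of 4 mice. None of these 4 was called there, while of the 12 genes Gdf3 was called higher (1.20) and Cd93 lower (-2.40). Mcoln3, a cation channel gene of endosomes and lysosomes, rose by 3.26 (SE 0.24). Of the interferon response list 8 of 12 genes rose and none fell, Bst2 by 0.62 (SE 0.09) and the transcription factor gene Irf7 by 0.58 (SE 0.05).

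The 12 largest falls were mostly genes of other brain cells. Ptn, Gpr37l1, Sparcl1, Mt3 and Aldoc are genes of astrocytes, and Ptn was at 1.11, 0.890, 1.01 and 0.525 CPM in phagocytes and at 31.6, 17.4, 4.90 and 3.42 CPM in comparison cells. The comparison cells held some astrocytes and oligodendrocytes, with summed astrocyte markers at 138, 135, 71.3 and 51.4 CPM. When cells of other types were left out of the comparison cells, Aldoc had a fold change of 0.32 and S100a6 of 0.06, and Mt3 (-0.37) and Sparcl1 (-0.69) were no longer called. Vtn, the gene of the plasma protein vitronectin, had 1, 1, 0 and 0 UMIs in the phagocytes and 1391, 1014, 501 and 307 in the comparison cells.

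Several inflammatory cytokine genes and most cell division genes were lower in the phagocytes. Of 14 cytokine and chemokine genes 8 fell and 3 rose (Ccl8, Ccl5 and Cxcl16). With Clec12a required 5 fell and 7 rose (median 0.04), beside 4.48% of all genes lower and 4.55% higher. With Gpnmb alone 9 fell and 3 rose (median -0.47), beside 6.41% lower and 8.03% higher. The difference between the kinds was not tested, here or for the dissociation genes below, which come from the same fits. Tnf was at 107, 127, 229 and 188 CPM against 217, 238, 505 and 377 CPM (-0.92, SE 0.05, adjusted p = 7.66e-09). It was lower in the phagocytes of each mouse, while both cell sets held more of it in PRMT1Cx3cr1-KO mice. Il1a fell by 0.79 (SE 0.06) and Ccl3 by 0.53 (SE 0.06), and all 3 genes were also called lower within each kind. Of 11 genes that respond to tissue dissociation 7 fell and none rose, with Egr1 at -0.73 (SE 0.04), but 5 fell and 4 rose with Clec12a required, and all 11 fell with Gpnmb alone. Of 15 cell division genes 12 fell, Birc5 by 0.83 (SE 0.10) and Rrm2, which makes DNA precursors, by 0.80 (SE 0.12). Mki67, the usual marker of dividing cells, was at 25.5, 22.3, 15.6 and 30.0 CPM against 24.4, 24.7, 34.3 and 58.7 CPM, with the difference in the PRMT1Cx3cr1-KO mice.

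**Figure D3:**
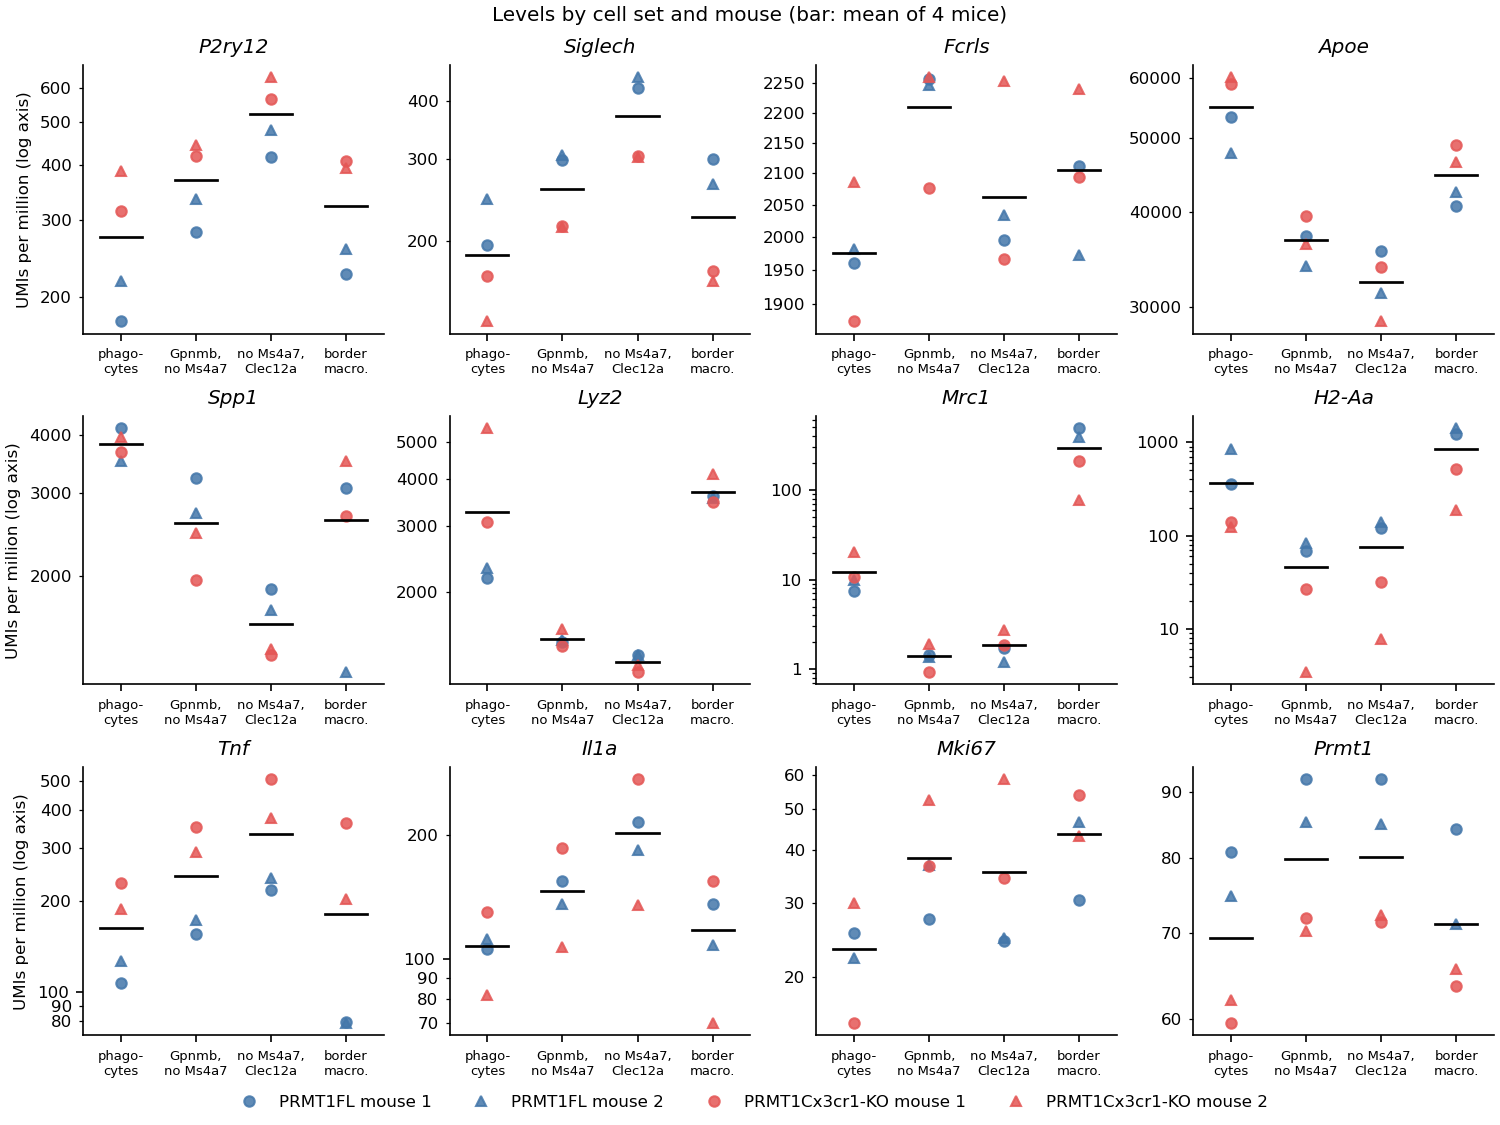
Levels of 12 genes in CPM (log axis, a separate scale for each gene) in phagocytes, in cells with Gpnmb and neither Ms4a7 nor Clec12a, in the comparison cells without Ms4a7 and Clec12a, and in Ms4a7 cells with 3 or more border macrophage UMIs. Each point is 1 mouse (n = 4, blue for PRMT1FL and red for PRMT1Cx3cr1-KO) and the bar is their mean; P2ry12 and Siglech are lower and Apoe, Spp1 and Lyz2 higher in phagocytes than in comparison cells of each mouse.

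Several genes of the major histocompatibility complex class II (MHC II), which present peptides to CD4 T cells, were higher in the phagocytes. Most phagocytes lacked a UMI of H2-Aa, the second most abundant MHC II gene. Of 10 MHC II genes 5 rose (H2-Eb1, H2-Aa, Ciita, Cd74 and H2-Ab1) and 2 fell (H2-Oa and H2-DMa). With Clec12a required 6 of 10 rose and none fell (median 1.83), beside 4.55 and 4.48% of all genes. With Gpnmb alone 4 of 10 rose and 1 fell (median 0.12), beside 8.03 and 6.41%. The summed list was at 1863, 2654, 764 and 480 CPM with Gpnmb alone, against 1452, 1682, 828 and 591 CPM in comparison cells. The difference between the kinds was not tested. H2-Aa (ENSMUSG00000036594, GRCm38 chromosome 17, 34282744 to 34287823, minus strand) stood at 357, 843, 140 and 123 CPM in phagocytes and at 120, 138, 31.7 and 7.73 CPM in comparison cells (2.61, SE 0.24, adjusted p = 3.44e-06), and 23.9, 40.3, 17.1 and 7.10% of the phagocytes had a UMI of it. H2-Eb1 (ENSMUSG00000060586, chromosome 17, 34305867 to 34316674, plus strand) was at 229, 612, 97.7 and 88.4 CPM against 61.8, 68.3, 16.0 and 6.13 CPM (2.93, SE 0.20). Ciita, the coactivator that switches these genes on, rose by 2.25 (SE 0.35) from 11, 23, 4 and 11 UMIs. The promoters of H2-Aa and H2-Eb1, from 250 bases before to 50 bases after the start in RefSeq on GRCm38.p6, are shown because these genes had the largest MHC II rises in this comparison and were also lower in PRMT1Cx3cr1-KO mice, as given further on. H2-Aa lies at chr17:34287774-34288073 on the minus strand and H2-Eb1 at chr17:34305617-34305916 on the plus strand, and capitals mark CCAAT, searched on both strands and so also seen as ATTGG, and an X box, searched on both strands as AGCAACTGATG with any base allowed at position 7, which does not overlap it.
H2-Aa: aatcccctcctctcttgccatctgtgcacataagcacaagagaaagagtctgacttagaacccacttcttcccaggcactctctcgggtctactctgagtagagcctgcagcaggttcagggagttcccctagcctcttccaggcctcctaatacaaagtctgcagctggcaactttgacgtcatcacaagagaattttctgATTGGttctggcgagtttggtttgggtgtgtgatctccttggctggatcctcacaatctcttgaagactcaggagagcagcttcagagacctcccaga
H2-Eb1: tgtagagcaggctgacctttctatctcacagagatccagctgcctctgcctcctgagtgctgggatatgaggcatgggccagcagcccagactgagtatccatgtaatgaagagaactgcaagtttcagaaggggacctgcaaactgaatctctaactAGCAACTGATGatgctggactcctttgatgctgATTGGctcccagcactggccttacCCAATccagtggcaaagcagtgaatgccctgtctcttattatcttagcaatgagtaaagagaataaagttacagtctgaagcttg
CCAAT was found in the H2-Aa window only as ATTGG, beginning 48 bases before the start site, and in the H2-Eb1 window as ATTGG and CCAAT, beginning 59 and 35 bases before it. These letters are common, present in 37.4% of 32851 promoters of the same length, whereas the X box letters were present in 0.0700% (23 promoters), among them that of H2-Eb1, beginning 92 bases before the start site.

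Cells with Gpnmb but neither Ms4a7 nor Clec12a were a part of the comparison cells and numbered 1602, 1042, 1272 and 1284, with median depths of 10984.5, 13883.5, 10246.5 and 9878 UMIs. Of 11308 genes 763 were higher (6.75%) and 774 lower (6.84%) in the phagocytes, 1537 in all and 928 without PRMT1Cx3cr1-KO mouse 1. Of 16 homeostatic genes 12 were lower, with P2ry12 at -0.43 (SE 0.06), beside -0.87 against all comparison cells, and Siglech at -0.46 (SE 0.05). Apoe was at 37200, 33906, 39442 and 36294 CPM in these Gpnmb cells, below the phagocytes of each mouse (0.61, SE 0.02, adjusted p = 5.71e-13). Spp1 rose by 0.61 (SE 0.06) and Lgals3 by 0.80 (SE 0.06). Lyz2 rose by 1.05 (SE 0.11), and 8 of 9 marrow-derived macrophage genes and 5 of 10 MHC II genes were higher. Cell division genes were lower in 14 of 15 cases, with Rrm2 at -1.02 (SE 0.13) and Birc5 at -0.89 (SE 0.08). Lpl and Cst7, on the disease-associated list, were lower in the phagocytes by 0.26 and 0.30 on the log2 scale, so 7 of 17 genes of that list rose and 5 fell against these cells.

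The other neighbouring group, Ms4a7 cells with 3 or more UMIs of the 5 border macrophage genes, held 128, 115, 130 and 519 cells. It is split from the phagocytes by the limit on these genes, and it also needs neither Clec12a nor Gpnmb. Of its 892 cells, 141, 89 and 359 (with 3, 4 and 5 or more of these UMIs) met the rest of the rule. The part of the second marker in the differences below was not tested. Pf4 gave 57.0, 62.9, 67.3 and 83.9% of the UMIs of these 5 genes in the border set, most in PRMT1Cx3cr1-KO mouse 2, which describes the choice. Of 9875 genes 43 were higher (0.435%) and 86 lower (0.871%) in the phagocytes, together 1.31%. No homeostatic microglia gene of 16 was called in either direction. The phagocytes had more Lgals3 (1.13, SE 0.07), more Spp1 (0.72, SE 0.16) and more Itgax (0.94, SE 0.10), the integrin gene that encodes CD11c, with 7 of 17 disease-associated genes higher and none lower. Atp6v0d2 rose by 1.54 (SE 0.25) and the matrix protease gene Mmp12 by 1.78 (SE 0.16). Of 8 border macrophage genes outside the rule 7 were lower. Mrc1, the mannose receptor gene, was at 7.47, 9.79, 10.7 and 20.2 CPM in phagocytes and at 488, 390, 209 and 76.9 CPM in the border set (-3.98, SE 0.41), a gap that narrowed in PRMT1Cx3cr1-KO mouse 2. The chemokine gene Ccl7 was at 1.11, 0, 3.45 and 1.84 CPM against 93.8, 115, 75.4 and 18.1 CPM. Folate receptor gene Folr2 fell by 1.78 (SE 0.30), the endocytic adaptor gene Dab2 by 1.46 (SE 0.23), and 5 of 10 MHC II genes were lower, H2-Aa by 1.15 (SE 0.17). The number of called genes moved with single mice, to 59, 33 and 32 when PRMT1FL mouse 1, PRMT1FL mouse 2 or PRMT1Cx3cr1-KO mouse 1 was left out, and to 666 when PRMT1Cx3cr1-KO mouse 2 was, and Spp1, Folr2 and Dab2 each lost their call in some of these fits.

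Within the phagocytes, the cells with Clec12a and those with Gpnmb alone differed in level for part of these genes. The former numbered 35, 41, 98 and 417 and the latter 270, 185, 299 and 329, with medians of 5295, 7454, 7039 and 7021 UMIs against 10886.5, 13746, 10511 and 9229 UMIs. Because Clec12a and Gpnmb chose the cells, their own levels are no result, and the other levels are described without a test between the subsets. Ccr2 was at 67.5, 157, 72.8 and 31.3 CPM in phagocytes with Clec12a and at 0.893, 1.72, 1.52 and 2.86 CPM in those with Gpnmb alone, the level of the comparison cells. Against the comparison cells its fold change was 5.01 with Clec12a required and -0.16 with Gpnmb alone. Mrc1 was at 67.5, 65.9, 48.2 and 35.8 CPM with Clec12a and at 2.98, 0.690, 1.52 and 4.94 CPM without. H2-Aa was at 2357, 4079, 550 and 243 CPM with Clec12a, against 207, 318, 39.2 and 6.50 CPM without. Lyz2 was at 5139, 4981, 5416 and 7583 CPM with Clec12a and at 1955, 1880, 2496 and 3362 CPM without, and the latter were still above the comparison cells of each mouse.

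Of 16 homeostatic genes 13 fell with Clec12a required and 14 with Gpnmb alone, and none rose in either. P2ry12 stood at 167, 234, 317 and 380 CPM with Clec12a and at 176, 215, 313 and 397 CPM with Gpnmb alone. Apoe had a fold change against the comparison cells of 0.75 with Clec12a and 0.86 with Gpnmb alone, and Spp1 of 1.19 and 1.37. Of 27 lysosomal genes, 2 rose and 4 fell against the comparison cells with Clec12a required (4.55 and 4.48% of all genes, 9.03% together), and 24 rose and none fell with Gpnmb alone (8.03 and 6.41%, 14.4% together); the difference between the kinds was not tested. Ctsd was at 17323, 15098, 17002 and 16592 CPM with Clec12a, below the comparison cells of each mouse, and at 26172, 26737, 22300 and 23852 CPM with Gpnmb alone, above them. The fold change of Ctsb was -0.06 and that of Cd68, a lysosomal membrane protein gene, -0.01 with Clec12a required, against 0.47 and 0.46 with Gpnmb alone.

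**Figure D4:**
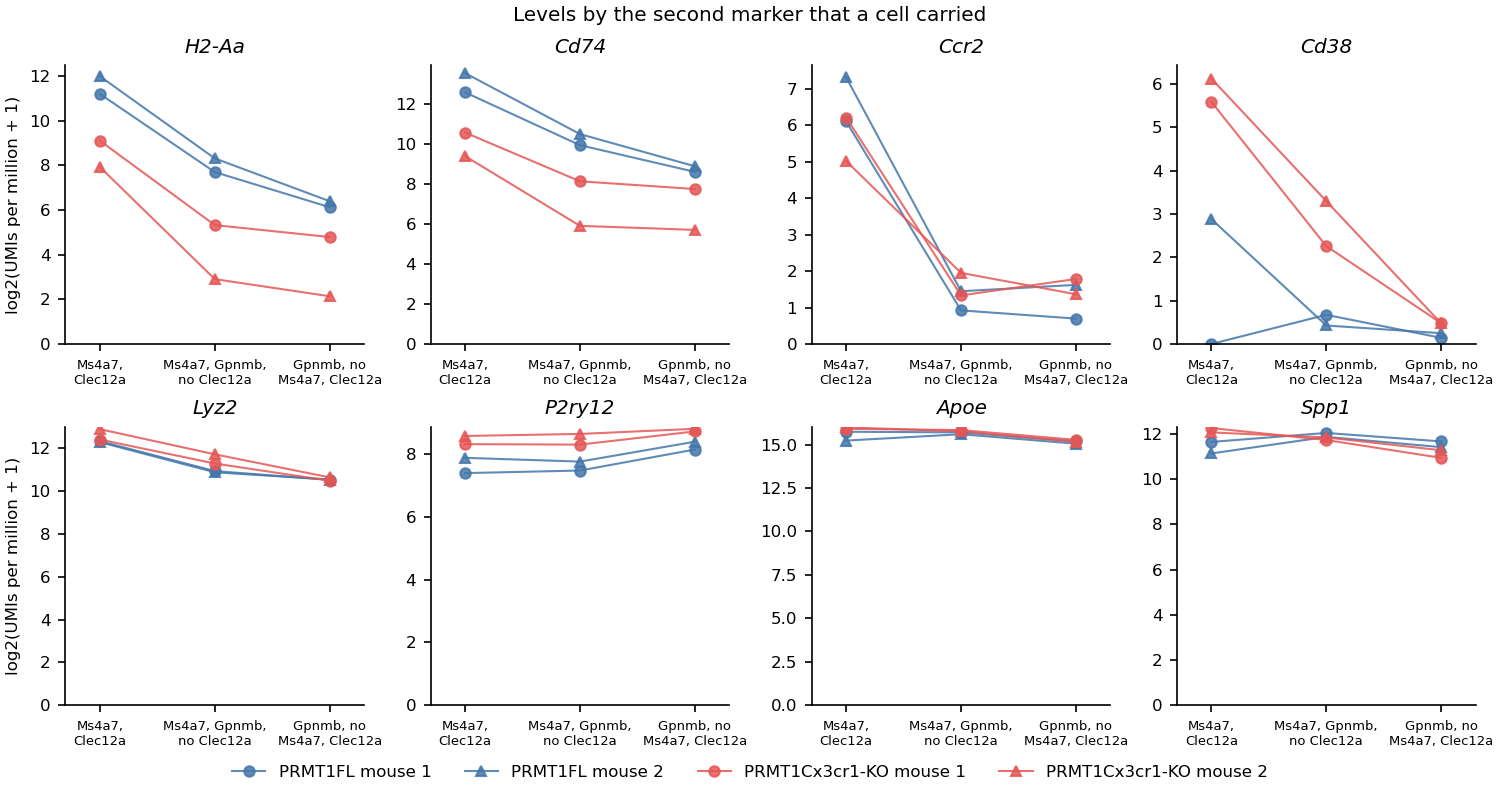
Levels of 8 genes, as log2 of CPM plus 1, in phagocytes with Clec12a, in phagocytes with Gpnmb and no Clec12a, and in cells with Gpnmb and neither Ms4a7 nor Clec12a, with 1 line per mouse. Ccr2 drops to about the level of the Gpnmb cells once Clec12a is absent, H2-Aa, Cd74 and Lyz2 decline in steps, and P2ry12 differs little between the 2 kinds of phagocytes.

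The comparison between genotypes asked how the phagocytes differed between mice with intact and with deleted Prmt1. Prmt1 (ENSMUSG00000109324, chromosome 7, 44975989 to 44986568, minus strand), the gene of the main asymmetric arginine methyltransferase and the target of the deletion, was at 80.8 and 74.8 CPM in phagocytes of PRMT1FL mice and at 59.6 and 62.0 CPM in those of PRMT1Cx3cr1-KO mice. Both PRMT1Cx3cr1-KO values lay below both PRMT1FL values, but the fold change of -0.43 (SE 0.11, adjusted p = 0.116) did not pass the threshold. In the comparison cells, where 300 of 14440 genes were higher (2.08%) and 680 lower (4.71%) in PRMT1Cx3cr1-KO mice, it was -0.35 (SE 0.07, adjusted p = 0.0369), and the difference between these 2 fold changes was -0.07 (SE 0.11, adjusted p = 0.922). Since counts are summed over the gene, RNA from recombined alleles is counted with the rest. The other 7 arginine methyltransferase genes tested were not called either.

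Of 10197 genes tested in the phagocytes, 32 were higher (0.314%) and 28 lower (0.275%) in PRMT1Cx3cr1-KO mice. These 60 genes became 13 without either PRMT1FL mouse and 447 without PRMT1Cx3cr1-KO mouse 1; H2-Aa, Cd74 and Gdf15 were called in each of the 4 fits that left out 1 mouse, whereas most genes named below lost their call in some of them. The mixture of phagocytes differed between the mice, with Clec12a cells at 11.5 and 18.1% in PRMT1FL and 24.7 and 55.9% in PRMT1Cx3cr1-KO mice, and within each kind alone 20 genes were called. With Clec12a required 6553 genes were tested, 51 of the 60 among them, and 11 of these were called, and with Gpnmb alone 9897 genes were tested, 59 of the 60 among them, and 18 of these were called; fold changes within phagocytes with Clec12a and within those with Gpnmb alone are given below, in that order, for part of the genes. For Prmt1 they were -0.43 and -0.42, neither called. MHC II genes were lower, with 5 of 10 called and none higher (median -1.53 against 0.00 over all genes). H2-Aa fell from 357 and 843 CPM to 140 and 123 CPM (-2.26, SE 0.29, adjusted p = 0.00611), and Cd74, the invariant chain that guides MHC II molecules, from 1351 and 2934 CPM to 529 and 365 CPM (-2.33, SE 0.29, adjusted p = 0.00611). H2-Eb1 fell by 2.25 and H2-Ab1 by 2.02. Within the 2 kinds H2-Aa was at -3.09 (adjusted p = 0.000195) and -3.57 (adjusted p = 0.0120), and in comparison cells it was -2.75 (SE 0.59, adjusted p = 0.0487). Cd74 was at -3.09 (called) and -2.89 (not called, adjusted p = 0.0582), H2-Eb1 at -3.28 and -3.32 and H2-Ab1 at -3.09 and -2.16, both called in each kind. Ciita had a fold change of -2.10 (SE 0.50, adjusted p = 0.0992) and was not called, while with Clec12a required it was at -3.37 (adjusted p = 0.0135).

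Of 17 disease-associated genes 5 were lower in PRMT1Cx3cr1-KO phagocytes and none was higher (median -0.44). Itgax was at 122 and 129 CPM in PRMT1FL and 66.5 and 34.6 CPM in PRMT1Cx3cr1-KO mice (-1.42, SE 0.23, adjusted p = 0.0196). Cst7 fell by 1.12 (SE 0.18), from 1885 and 1875 CPM to 1118 and 703 CPM, the chemokine gene Ccl6 by 0.71 (SE 0.10), the receptor tyrosine kinase gene Axl, which binds dying cells, by 0.70 (SE 0.13) and the lipoprotein lipase gene Lpl by 0.59 (SE 0.11). Within phagocytes with Clec12a, Itgax (-2.51) and Ccl6 (-1.33) were called and Cst7 (-0.57), Axl (-0.69) and Lpl (-0.66) were not. Within those with Gpnmb alone Cst7 (-1.0) was called, and Itgax (-1.08), Ccl6 (-0.49), Axl (-0.75) and Lpl (-0.46) were not. Apoe and Spp1 of the same list did not pass the threshold, with fold changes of 0.16 (SE 0.12, adjusted p = 0.691) and -0.08 (SE 0.11, adjusted p = 0.852), nor within either kind (Apoe 0.40 and 0.08, Spp1 0.71 and -0.24). No lysosomal gene of 27 was called, beside 0.588% of all genes. Among homeostatic genes P2ry12 rose by 0.76 (SE 0.12, adjusted p = 0.0196), and Cx3cr1, whose promoter drives Cre here, was at 1120 and 1231 CPM against 758 and 779 CPM (-0.69, SE 0.10, adjusted p = 0.0110). Within the 2 kinds P2ry12 was at 0.72 (not called) and 0.79 (called), and Cx3cr1 at -0.78 and -0.73, both called. The Cx3cr1-driven Cre is described only in PRMT1Cx3cr1-KO mice, so carrying it and losing Prmt1 cannot be told apart here. Mamdc2, Dkk2, Cox6a2, Hpse and Rem1 were the other large falls, Cox6a2, a cytochrome oxidase subunit gene, from 425 and 514 CPM to 243 and 146 CPM and Hpse, the heparanase gene, from 59.0 and 56.4 CPM to 34.2 and 16.7 CPM. Cox6a2 was at -1.22 and -1.14 within the 2 kinds and called in the latter, while Hpse, at -1.13 and -1.15, was called in neither. Mamdc2, Dkk2 and Rem1 were tested with Gpnmb alone, where none was called.

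Of 8 oxidative and integrated stress genes tested, 2 were higher in PRMT1Cx3cr1-KO phagocytes, Gdf15 and Gclm, and 6 were not called, beside 0.314% of all genes called higher. Gdf15, a secreted stress cytokine, was at 14.1 and 19.0 CPM in PRMT1FL and at 74.0 and 84.5 CPM in PRMT1Cx3cr1-KO mice (2.19, SE 0.15, adjusted p = 8.88e-05), and in comparison cells it rose by 1.91 (SE 0.19). Gclm, for glutathione synthesis, rose by 1.61 (SE 0.22) and Osgin1, an oxidative stress response gene outside that list, by 1.76 (SE 0.33). Pla2g7, which inactivates platelet-activating factor, was at 14.9 and 10.1 CPM against 58.6 and 111 CPM (2.69, SE 0.29). Tnf rose by 0.75 (SE 0.13), as in comparison cells (0.91, SE 0.15), and Il7r by 2.44 (SE 0.40). Within phagocytes with Clec12a none of these was called, with Gdf15 at 0.67, Gclm at 1.18, Pla2g7 at 1.37 and Tnf at 0.90, and Osgin1 and Il7r were not tested. Within those with Gpnmb alone Gdf15 (2.63), Pla2g7 (3.1) and Tnf (0.81) were called and Gclm (1.86), Osgin1 (1.85) and Il7r (3.30) were not. Saa3, an acute phase gene of macrophages, was at 6.37 and 1.48 CPM against 43.8 and 28.2 CPM, and was called within neither kind. Some of the largest rises rested on next to no UMIs in PRMT1FL mice, where the fitted fold change depends on the prior count and is not given: Treml4 had 0 and 1 UMIs there against 15 and 67, Cfp, the complement gene of properdin, 0 and 1 against 16 and 64, Mgst1, a glutathione transferase gene, 4 and 1 against 77 and 281, and Cd38 2 and 4 against 61 and 294. Cd38 (ENSMUSG00000029084, chromosome 5, 43868553 to 43912375, plus strand) encodes an NAD-consuming surface enzyme, and its UMIs in PRMT1Cx3cr1-KO mice came mainly from phagocytes with Clec12a (46 of 61 and 260 of 294). Mgst1 came mainly from those with Gpnmb alone (67 of 77 and 222 of 281).

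**Figure D5:**
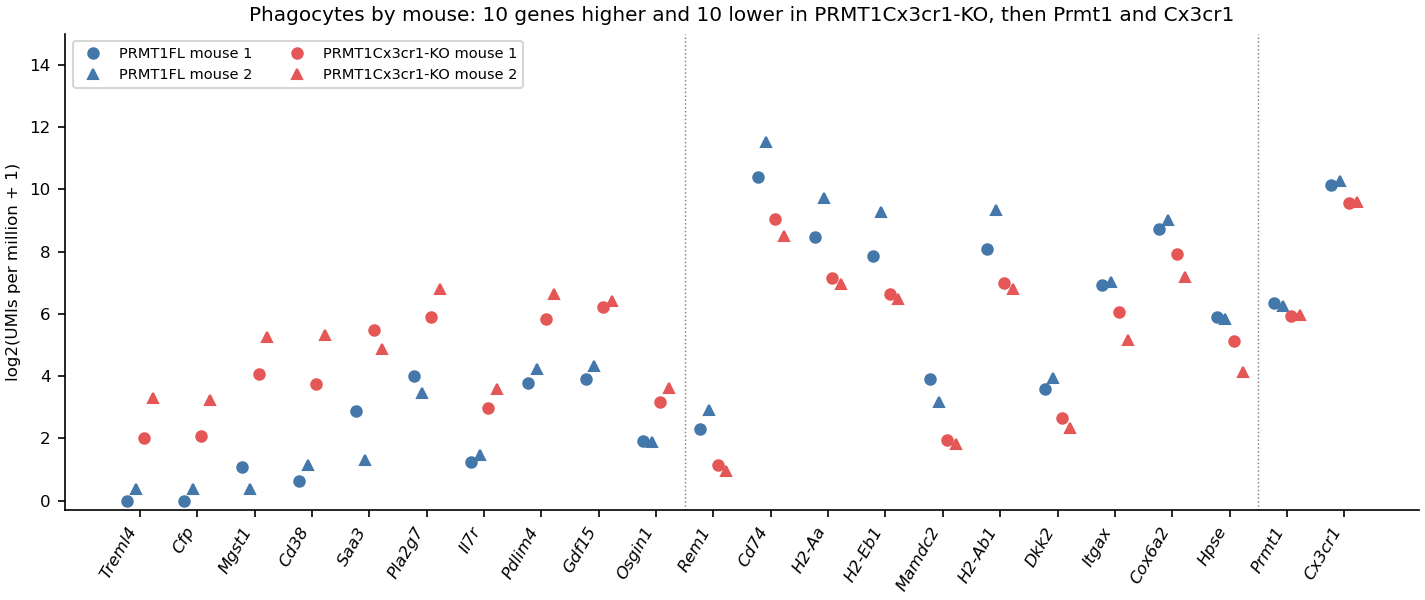
Levels in phagocytes by mouse, as log2 of CPM plus 1, of the 10 genes with the largest rises and the 10 with the largest falls in PRMT1Cx3cr1-KO mice and of Prmt1 and Cx3cr1. Blue points are PRMT1FL and red points PRMT1Cx3cr1-KO mice (n = 2 each). The genes with the largest rises and falls were chosen for their call between the genotypes, so their separation describes the choice.

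Of the 13973 genes for which the genotype difference in phagocytes was set against that in comparison cells of the same mice, 113 had a larger rise or smaller fall in the phagocytes (0.809%) and 106 the opposite (0.759%), or 219 in all (1.57%), 90 and 100 without PRMT1FL mouse 1 and PRMT1Cx3cr1-KO mouse 2, and 555 when PRMT1Cx3cr1-KO mouse 1 was left out. For Lyz2 the genotype fold change was 0.84 (SE 0.19, adjusted p = 0.0837) in phagocytes and -0.17 (SE 0.07, adjusted p = 0.213) in comparison cells. The fitted difference between them was 0.98 (SE 0.09, adjusted p = 3.94e-12). With Clec12a required the difference was 0.56, and with Gpnmb alone it was 0.72. Cd38, Cybb, Spp1 and Apoe, a set that the study chose on these same samples to describe a cluster it called B1, were all in the first group and all higher in phagocytes than in comparison cells. A set chosen in this way is no independent evidence of its direction. Cybb, a subunit gene of the phagocyte oxidase, differed by 0.72 (SE 0.15, adjusted p = 0.00165), but by 0.15 with Gpnmb alone and 0.18 with Clec12a required. Of 15 cell division genes 6 were in the second group, Mki67 among them (adjusted p = 1.08e-05), which was at 25.5 and 22.3 against 15.6 and 30.0 CPM in phagocytes and at 24.4 and 24.7 against 34.3 and 58.7 CPM in comparison cells of the 2 genotypes. The difference for Mki67 was -1.0, and its sign turned with Clec12a required (0.74) and with 2 or more UMIs of Ms4a7 (0.42), neither of them called, while it was -1.57 with Gpnmb alone. Igf1 differed by -0.48 (SE 0.07), with -0.37 (not called) and -0.39 within the 2 kinds. Cst7 differed by -0.50 (SE 0.07), by -0.35 with Gpnmb alone and by 0.12, not called and of the other sign, with Clec12a required.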

How the data were processed

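Brain cells of 4 mice, 1 library each, were captured with 10x 3' version 2 chemistry. Per the labels, the authors aligned reads to mm10 and counted UMIs with Cell Ranger 3.1.0 (their notes also name Seurat 3.2.0 and Scanpy 1.5.2). The deposited values are raw UMI counts of 32285 features for 41365 barcodes. Median depth was 6066, 6923, 6232.5 and 6959.5 UMIs per passing cell. The phagocytes, gene lists and tests were chosen with earlier results of these data known.

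Counts were summed per mouse and cell set and tested with edgeR 4.0.16 in R 4.3.3 (quasi-likelihood test, TMM, filterByExpr, Benjamini-Hochberg), with the mouse as a block between cell sets and without a block between genotypes. The difference of differences crossed genotype with cell set. Nothing says more of the replicates than 1 mouse each. The 8 genes of the rule were left out of calls. Between cell sets, the 12 called genes with the largest fold change in each direction were named, among those that moved the same way in every mouse. Rises needed 20 or more UMIs per mouse on average in the phagocytes. Falls needed 20 or more UMIs expected there from the level of the other cell set. Between genotypes and for the difference of differences, the 10 called genes with the largest fold change in each direction were named. So were the 4 most abundant genes of each of 29 lists. Other genes were named after their values were seen. Scrublet scores marked doublets at 0.8% per 1000 barcodes, because its automatic threshold marked 3 cells in all. The tests were checked on simulated data, but no outcome of that check is given here. Alternatives were DESeq2 1.42.0 and its size factors, no filter, thinning to 2000 UMIs, no doublets, the block, other rules for phagocytes, comparison cells of like depth or without other cell types, and leaving out each mouse. Promoters came from RefSeq GRCm38.p6, coordinates from GENCODE M21. A few genes are not reported here.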

Additional observations from a re-analysis of the deposited data

Results flagged for a closer look

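The genotype difference in the phagocytes differed from that in the comparison cells of the same mice for 219 genes at an adjusted p under 0.05 (edgeR's interaction term). The values below are log2 differences between the 2 genotype fold changes, positive where the change in PRMT1Cx3cr1-KO mice was higher in the phagocytes.

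The 10 largest positive values belonged to genes of other cells with few or no UMIs in the phagocytes. They were S100a9 at 12.6, Pex5l at 11.94, Mal at 11.1, Ermn at 10.75, Grb14 at 10.7, Olig1 at 10.66, Cldn11 at 10.34, Fez1 at 10.28, Hbb-bs at 10.2 and Ttll7 at 10.07. S100a9, a neutrophil gene, had 1, 1, 0 and 17 UMIs in the phagocytes and 4144, 12001, 2 and 8 UMIs in the comparison cells, nearly all of them in PRMT1FL mice. Hbb-bs, a haemoglobin gene, had 2, 0, 1 and 0 UMIs against 11963, 3895, 4 and 0. Mal, a myelin gene, had 0, 0, 10 and 0 UMIs in the phagocytes, all from 1 mouse. With such counts the fitted values depend on the prior count and are no measure of size.

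The 10 largest negative values were Ttr at -5.44, Ttk at -2.69, Thbs2 at -1.9, Scml4 at -1.7, Igfbp5 at -1.69, Cdhr3 at -1.46, Hmmr at -1.3, Cd5l at -1.25, Htr2b at -1.25 and Cxcl1 at -1.23. Ttr, a gene of the choroid plexus, had 6586 UMIs in the comparison cells of PRMT1Cx3cr1-KO mouse 1 and between 61 and 775 in those of the other mice. Ttk and Hmmr are genes of mitosis, and Hmmr had 36, 19, 29 and 53 UMIs in the phagocytes against 662, 566, 869 and 1474.

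Among the genes followed in the comparisons, Cd38 was at 5.03, a fitted value that depends on the prior count because PRMT1FL phagocytes held 2 and 4 UMIs. Lyz2 was at 0.98, H2-Aa at 0.84, Cybb at 0.72, P2ry12 at 0.4, Spp1 at 0.36, Apoe at 0.32, Igf1 at -0.48, Cst7 at -0.5, H2-Ab1 at -0.62 and Mki67 at -1. The share of phagocytes with Clec12a was 11.5, 18.1, 24.7 and 55.9%. Its part in these values was not tested as a whole; within phagocytes with Gpnmb alone H2-Aa was at -0.80 and Lyz2 at 0.72.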

How the results depend on the processing

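With 2 mice per genotype and 0 to few UMIs per mouse for many genes, small differences in rare genes were not detectable at this depth. The ratio of phagocyte shares kept its direction under all 12 alternatives, from 1.28 to 7.31, and lay between 1.41 and 2.52 with 1 mouse left out. Between phagocytes and comparison cells, 1867 genes were called, against 1123 with cells thinned to 2000 UMIs, 1141 with Clec12a required and 1203 to 1843 with 1 mouse left out. Against the border set, 129 became 74 with DESeq2, 496 with no filter, 76 after thinning and 32 to 666 with 1 mouse left out. Against Gpnmb cells without Ms4a7, 1537 became 632 with DESeq2, 622 after thinning and 928 to 1369 with 1 mouse left out. Between genotypes, 60 became 39 with DESeq2, 379 with no filter, 21 with 2 or more UMIs of Ms4a7, 20 with Clec12a required, 20 with Gpnmb without Clec12a and 13 to 447 with 1 mouse left out. The 219 genes with unequal genotype differences became 52 with DESeq2, 99 after thinning, 119 with 2 or more UMIs of Ms4a7, 64 with Clec12a required and 90 to 555 with 1 mouse left out. The causes were not tested. Without the mouse as a replicate block, the 3 comparisons between cell sets called 424, 22 and 206 genes (comparison cells, border set, Gpnmb cells). Same-numbered mice of the 2 genotypes share only a number (correlation of their deviations 0.00732 in phagocytes over 10201 genes and 0.117 in all cells over 14757 genes), and a replicate block on it called 197 genes between genotypes.

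Signs of named genes turned as follows. Against comparison cells without other cell types, Aldoc was at 0.32 and S100a6 at 0.059. With Gpnmb without Clec12a, Ccr2 was at -0.16 and Ctsl at 0.024, and with Clec12a required Fcrls was at -0.23, Ctsb at -0.061, Cd68 at -0.013, Ctsd at -0.27, Cst7 at -0.75, Tyrobp at -0.14, Fcer1g at -0.00027, Gdf15 at -0.35 and Tfeb at -0.0037. Between genotypes Pltp was at -0.42 and Mmp12 at -2.45 with Clec12a required, neither called, and the Mmp12 value depends on the prior count. For the difference of genotype differences, Clec12a required gave Thbs2 7.08, Cxcl1 0.88, Cst7 0.12 and Mki67 0.74, 2 or more UMIs of Ms4a7 gave Hmmr 0.54 and Mki67 0.42, and Gpnmb without Clec12a gave H2-Aa -0.80. In all, 1248 of 1380 values of named genes against comparison cells and 334 of 479 between genotypes kept direction and side of the threshold. Chosen after seeing the data were the splits by Clec12a or Gpnmb, the border gene sum of 0 between genotypes and, for the difference of genotype differences, comparison cells without other cell types.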

Other observations

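Members of other gene groups were called between phagocytes and comparison cells, beside 7.59% of all genes higher and 6.8% lower. Of 12 genes for the uptake of dying cells and modified lipids 7 rose, among them Axl (0.34, SE 0.05) and Msr1, and 2 fell, Mertk (-0.31, SE 0.05), a receptor for dying cells, and its ligand gene Pros1. Mertk was at 141, 132, 140 and 132 CPM in phagocytes and at 193, 191, 179 and 166 CPM in comparison cells. Of 5 Fc receptor genes 2 rose (Fcgr2b and Fcer1g), and of 7 C-type lectin genes outside the rule 3 rose (Clec4b1, Clec4n and Clec4d). Both ferritin genes Fth1 and Ftl1 rose while Slc40a1, the iron exporter, fell by 0.28 (SE 0.08), out of 5 iron genes. Of 9 stress genes Trib3, Gdf15 and Srxn1 rose, Gdf15 by 0.60 (SE 0.07). Of the 4 MiT transcription factor genes, which drive lysosome formation, Tfeb alone was called, at 0.25 (SE 0.07, adjusted p = 0.0304 by edgeR). With Clec12a required, beside 4.55% of all genes called higher and 4.48% lower, 6 of 7 C-type lectin genes rose and Gdf15 was at -0.35, not called. These genes were named after their values were seen.

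Mmp12, a macrophage elastase gene, rose by 1.70 (SE 0.22, adjusted p = 0.00611 by edgeR) in phagocytes of PRMT1Cx3cr1-KO mice, at 61.6 and 57.9 CPM against 11.6 and 23.4 CPM, while only 6.56, 7.96, 6.80 and 6.57% of the phagocytes of the 4 mice had a UMI of it. In PRMT1Cx3cr1-KO mice its UMIs came from phagocytes with Gpnmb alone in 304 of 304 and 390 of 441 cases. Within phagocytes with Clec12a, Mmp12 had 16, 22, 0 and 51 UMIs.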
